A study of Arabidopsis thaliana with 36 samples.

Results

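The 32 genes described here encode subunits of the photosynthetic electron transport chain that are made in the nucleus and imported into the chloroplast. They were chosen by gene identifier and leave out the light-harvesting antenna. Photosystem I has 12 of them, photosystem II 11, the carriers between and after the photosystems 6, and the chloroplast ATP synthase 3. All 32 were found among the 16283 genes of the deposited table. Wild-type Arabidopsis thaliana seedlings of the Col-0 accession, 7 d old, had grown at 21 °C with 16 h of light and 8 h of dark on medium with 1% sucrose. Treated seedlings were held for 1, 2 or 3 h in 30% polyethylene glycol (PEG) to which salicylhydroxamic acid (SHAM) had been added. SHAM inhibits the alternative oxidase and lipoxygenases. The sample labels give 1 mM SHAM and the treatment protocol 0.1 mM, and the osmotic pressure of the PEG solution is given as -2.0 MPa. Controls were 3 sets of seedlings in water, labelled as 1 h. The sets are named here by the prefixes of their titles, S0, PS0 and PH0. Roots and shoots were sampled separately, with 3 libraries in each of 12 groups and 30 to 50 seedlings pooled for each biological replicate. Transcripts were counted by MARS-seq, which reads the 3′ ends of transcripts. Seedlings given PEG without SHAM, or SHAM without PEG, were not analysed here, and what each agent did cannot be told apart. Treated libraries were compared with PS0, the set that shares their prefix. The 2 h and 3 h libraries were therefore compared with water labelled 1 h, and time since the start of the experiment moves with them.

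In the thylakoid membrane photosystem II takes electrons from water, the cytochrome b6f complex passes them to plastocyanin, and photosystem I lifts them to ferredoxin, from which a reductase makes NADPH. The proton gradient built on the way drives the ATP synthase. The core subunits that bind the pigments are encoded in the chloroplast genome. Many of the nuclear subunits described here dock the soluble carriers, stabilise the oxygen-evolving complex or attach the antenna. Others are the carriers themselves, the reductases, or parts of cytochrome b6f and the ATP synthase. Their transcripts are known to be abundant in green tissue and to depend on light and on signals from the plastid.

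The recovered reads per library ranged from 161684 to 7181461 over 36 libraries, with a median of 1668297. Among shoot libraries 3 were shallow: replicate 1 of PH0 with 161.7 kiloreads, replicate 2 at 2 h with 340.2 kiloreads and replicate 1 of PS0 with 512.6 kiloreads. PS0 replicate 1 was the highest of its set for 18 of the 32 genes, and 2 h replicate 2 was the highest of its group for 18 and the lowest for 10. The shallowest 3 h library, replicate 1 with 1075.3 kiloreads, was the highest of its group for 24 and the lowest for 3. Of a list of 10 dehydration genes limma called 9 higher at 3 h in shoots, where 6.66% of all genes were. The list was chosen with earlier results of these data known, so it is no independent check of the treatment. Of the 10, 2 were also higher in PS0 than in the other water sets, where 5.34% of all genes were. The sources used here do not say how reads shared by near-identical gene copies were counted, so values of single copies within the PSAD, PSAE, PSAH, PSBO, PSBQ, PETE and LFNR pairs are uncertain to that extent.

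The 32 genes together made up a smaller share of the shoot transcripts after PEG with SHAM. They held 12.6% ± 1.38 of a library's normalized counts in PS0, 11.2% ± 0.173 at 1 h, 9.0% ± 0.64 at 2 h and 8.6% ± 0.901 at 3 h (SD, n = 3 each). The other water sets held 14.2% ± 1.1 (S0) and 14.1% ± 0.854 (PH0). Without PSBR, a lumenal-side protein of photosystem II whose counts were spread widely within groups, the share was 9.65% ± 0.605 in PS0 and 6.24% ± 0.392 at 3 h. In roots the same genes made up 0.0904% to 0.393% of a library. In bulk samples fewer cells of a type and less RNA per cell cannot be told apart.

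**Figure D1:**
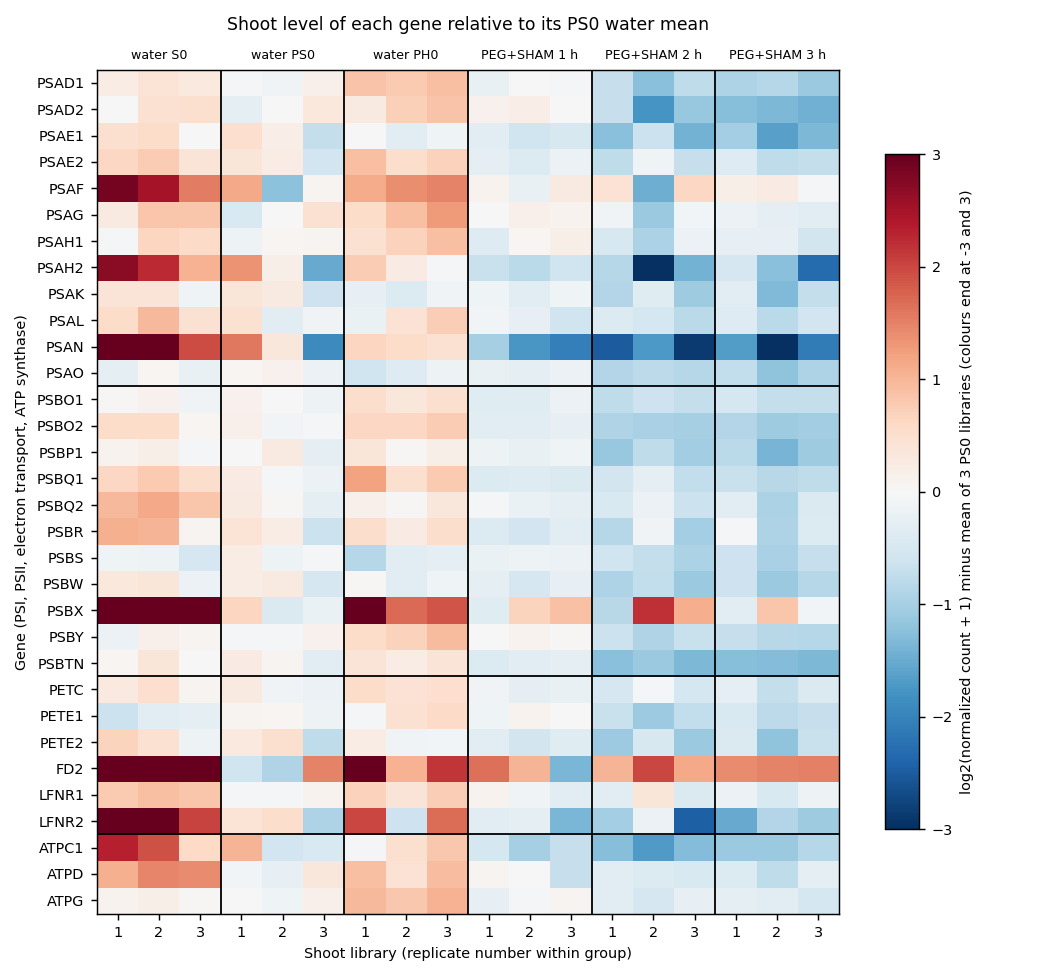
The log2 normalized count (plus 1) of each of the 32 genes (rows, grouped by complex) in each of the 18 shoot libraries (columns), minus the mean of the 3 PS0 libraries of that gene; the colour runs from -3 to 3. The 2 h and 3 h columns are below PS0 for most genes, and S0 and PH0 are above it for PSBX, FD2 and PSAF among others.

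At 3 h 14 of the 32 genes were lower than in PS0 and 0 were higher (limma, Benjamini-Hochberg adjusted p under 0.05), where 7.37% of the 10459 genes tested in shoots were lower and 6.66% higher. The median log2 change was -0.76 over the 32 and -0.08 over all genes tested, and 29 of the 32 values were below 0. At 2 h 14 were lower and 0 higher, against 5.06% and 4.36% of all genes, with a median of -0.75 (all genes -0.09), which was -0.31 under quantile normalization (all genes -0.07). At 1 h 0 were called in either direction, against 0.22% lower and 0.65% higher of all genes, with a median of -0.20 (all genes -0.02), although 2 had an unadjusted p under 0.05. The 1 h median was -0.04 with TMM scaling (all genes 0.12). edgeR and DESeq2 on recovered reads also called 0 at 1 h, where they called 39 and 73 of all genes lower and 129 and 131 higher. At 3 h edgeR called 13 lower and DESeq2 16, where they called 861 and 914 of all 10459 genes lower. All these comparisons share the 3 PS0 libraries. By complex, 8 of 11 photosystem II genes were lower at 3 h (median -0.77), 5 of 12 photosystem I genes (median -0.88), 1 of 6 carriers (median -0.56) and 0 of 3 ATP synthase genes (median -0.48). Whether the complexes differ was not tested. The number of calls depended on the libraries in the fit. Here and below, the share of all genes called is not given for fits that leave out groups or libraries or change the scaling. Counts from such fits cannot be set against a background, and fewer libraries in a fit can lower them. Fitted with the compared groups alone, 1 gene was called lower at 2 h, PSBTN, and 7 at 3 h. With single libraries left out, at 3 h it was 8 without PS0 replicate 1, 9 without 3 h replicate 2 and 18 without PS0 replicate 3, and at 2 h it was 8 without PS0 replicate 1 or 2 h replicate 3 and 19 without PS0 replicate 3. Against S0 and PH0 in place of PS0, 20 genes were lower at 1 h, 30 at 2 h and 30 at 3 h, where 11.1%, 16.8% and 17.3% of all genes were. Against all 3 water sets the counts were 12, 30 and 30, where 5.8%, 14.2% and 14.9% of all genes were lower.

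**Figure D2:**
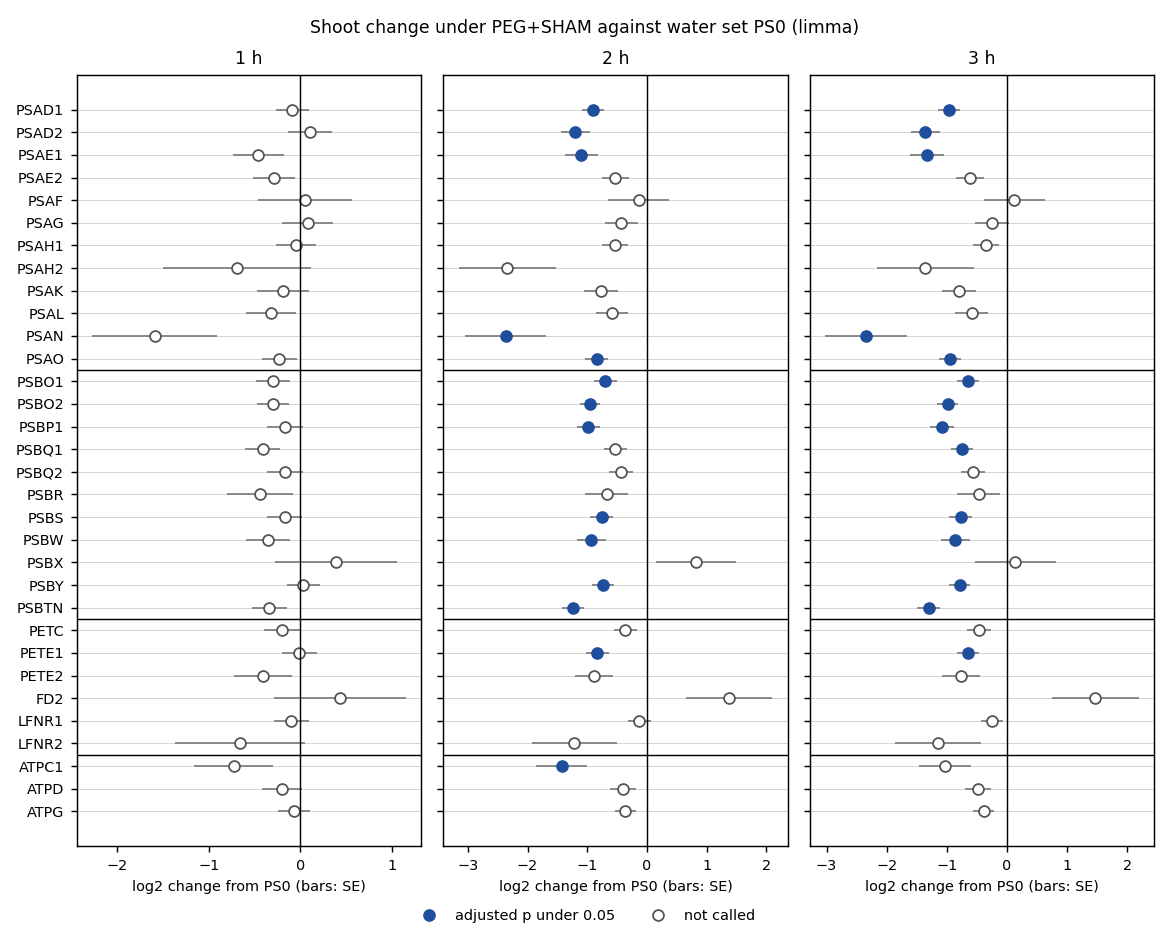
The log2 change of each of the 32 genes in shoots at 1 h, 2 h and 3 h (one panel per time) against the 3 PS0 libraries, with the standard error of the fit as the bar; filled points have an adjusted p under 0.05. No point is filled at 1 h, and 14 are filled below 0 at 2 h and again at 3 h.

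Among the stromal subunits of photosystem I that dock ferredoxin, PSAD1 (AT4G02770) and PSAD2 (AT1G03130) fell together. PSAD1 was at 5130.2, 4943.6 and 5877.4 normalized counts in PS0 replicates 1, 2 and 3, at 4561.4, 5344.0 and 5120.6 at 1 h, at 3301.5, 2227.0 and 3103.3 at 2 h, and at 2802.5, 2916.5 and 2433.2 at 3 h. The 1 h libraries lay within or close to the range of PS0, while all 6 later libraries lay below every PS0 and 1 h library. The log2 change was -0.90 ± 0.18 (SE) at 2 h and -0.97 ± 0.18 at 3 h, with limma adjusted p of 0.00253 and 0.000892. PSAD2 was at 1473.8, 1797.4 and 2249.7 in PS0, at 1973.5, 2082.8 and 1792.0 at 1 h, at 1123.8, 529.8 and 825.8 at 2 h, and at 747.0, 712.8 and 666.7 at 3 h. Again no later library reached any PS0 or 1 h library, and the lowest value came from the shallow 2 h replicate 2. Its log2 change was -1.20 ± 0.24 at 2 h (limma adjusted p 0.00231) and -1.36 ± 0.24 at 3 h (limma adjusted p 0.00049).

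The other ferredoxin-docking subunit, PSAE, has the copies PSAE1 (AT4G28750) and PSAE2 (AT2G20260). PSAE1 was at 13744.0, 11203.8 and 5916.1 in PS0, at 7841.8, 6421.4 and 6985.9 at 1 h, at 4071.4, 6222.9 and 3613.9 at 2 h, and at 4815.0, 3155.0 and 3804.7 at 3 h. PS0 replicate 3 was far below the other PS0 libraries, so the 2 h libraries overlapped with PS0, while the 3 h libraries did not. The log2 change was -1.33 ± 0.28 at 3 h (limma adjusted p 0.00318) and -1.10 ± 0.28 at 2 h (limma adjusted p 0.0173). The 2 h call was lost when any of 4 libraries was left out, with an adjusted p of up to 0.113. PSAE2 was at 3998.4, 3645.3 and 2104.0 in PS0 and at 2411.9, 1831.5 and 1914.9 at 3 h, with overlapping groups and a log2 change of -0.62 that did not pass (limma adjusted p 0.0884).

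PSAO (AT1G08380), a subunit on the side of photosystem I where mobile antenna binds during state transitions, was at 7876.9, 8247.5 and 6634.2 in PS0, at 6447.1, 6207.7 and 6738.4 at 1 h, at 4123.9, 4400.0 and 4145.0 at 2 h, and at 4523.9, 3282.3 and 3982.6 at 3 h. The later libraries lay below all PS0 and 1 h libraries, with log2 changes of -0.84 ± 0.19 at 2 h and -0.95 ± 0.19 at 3 h (limma adjusted p 0.00589 and 0.00132). The other subunits on that side, PSAL and the PSAH copies, did not pass at 3 h. PSAL was at 15556.3, 8954.8 and 10701.7 in PS0 and at 8709.1, 6471.5 and 7708.8 at 3 h, with a log2 change of -0.59 (limma adjusted p 0.16), although the groups did not overlap. PSAH1 was at 1791.2, 2085.2 and 2129.2 in PS0 and at 1682.7, 1673.1 and 1370.4 at 3 h, with a log2 change of -0.35 (limma adjusted p 0.346). PSAH2, its copy, was at 67.0, 29.1 and 8.4 in PS0 and at 17.8, 10.3 and 4.4 at 3 h, with overlapping groups, and 2 h replicate 2 had 0 reads of it, where 3 reads would give 13.5 normalized counts. The membrane subunits on the antenna side, PSAG and PSAK, had log2 changes of -0.25 (limma adjusted p 0.612) and -0.80 (limma adjusted p 0.0702). PSAF and PSAN lie at the lumenal side where plastocyanin docks. PSAF had a change of 0.12 (limma adjusted p 0.912) against PS0 and of -1.70 (limma adjusted p 0.00663) against S0 and PH0, and PSAN fell by 2.34 ± 0.68 (limma adjusted p 0.0255). That call for PSAN rests on widely spread libraries: they were at 320.9, 134.7 and 27.4 in PS0 and at 32.7, 10.3 and 24.0 at 3 h, the groups overlapped, and the call was lost when any of 4 libraries was left out, with an adjusted p of up to 0.181.

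In photosystem II the smallest adjusted p at both 2 h and 3 h among the 32 genes belonged to PSBTN (AT3G21055), a small lumenal protein. It was at 11223.0, 10057.1 and 7557.9 in PS0, at 7180.4, 7496.2 and 7774.0 at 1 h, at 3993.7, 4350.6 and 3724.7 at 2 h, and at 3913.4, 3871.0 and 3743.6 at 3 h. The 6 later libraries lay close together and well under all PS0 and 1 h libraries. The log2 change was -1.24 ± 0.19 at 2 h (limma adjusted p 0.000175) and -1.30 ± 0.19 at 3 h (limma adjusted p 6.42e-05), from a mean of 9612.7 ± 1872.5 in PS0 to 3842.7 ± 88.4 at 3 h (SD, n = 3).

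The extrinsic proteins PSBO, PSBP and PSBQ shield the manganese cluster that splits water. PSBO2 (AT3G50820) was at 4929.2, 4173.5 and 4228.8 in PS0, at 3514.7, 3586.2 and 3721.2 at 1 h, at 2354.1, 2244.9 and 2213.6 at 2 h, and at 2420.8, 2125.5 and 2151.7 at 3 h. All 1 h libraries were below all PS0 libraries, and all later ones below those at 1 h. The log2 change was -0.30 at 1 h, which did not pass (limma adjusted p 0.764), -0.96 ± 0.17 at 2 h (limma adjusted p 0.000771) and -0.99 ± 0.17 at 3 h (limma adjusted p 0.000379). PSBP1 (AT1G06680) was at 8952.3, 10648.1 and 7260.5 in PS0, at 7943.0, 7616.0 and 8110.2 at 1 h, at 4031.1, 5212.7 and 4285.5 at 2 h, and at 5055.5, 3383.8 and 4225.9 at 3 h. The 1 h libraries lay inside the PS0 range and the later ones below it, with log2 changes of -0.98 ± 0.20 and -1.09 ± 0.20 (limma adjusted p 0.00353 at 2 h and 0.000936 at 3 h). PSBO1 (AT5G66570), the other copy of PSBO, was at 16444.8, 15250.3 and 13651.0 in PS0, at 8904.7, 9823.8 and 9166.0 at 2 h, and at 10394.8, 9178.0 and 9204.7 at 3 h. The groups did not overlap and the change at 3 h was -0.65 (limma adjusted p 0.0252), a call lost when any of 4 libraries was left out, with an adjusted p of up to 0.0983. PSBQ1 (AT4G21280) was at 3413.1, 2749.7 and 2556.1 in PS0, at 2174.2, 2194.9 and 2148.4 at 1 h, and at 1825.3, 1629.2 and 1692.3 at 3 h. Its libraries were below PS0 from 1 h on, and the change passed at 3 h (-0.75, limma adjusted p 0.0117), but not without PS0 replicate 1 (0.0684). PSBQ2 was at 3300.3, 2781.8 and 2231.8 in PS0 and at 2162.4, 1426.9 and 2033.8 at 3 h, without overlap, and did not pass (-0.57, limma adjusted p 0.064). PSBR varied widely, at 63515.8, 56003.8 and 30398.7 in PS0 and 46212.8, 24918.1 and 35677.5 at 3 h, with overlap and a log2 change of -0.47 (limma adjusted p 0.443).

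PSBY (AT1G67740), a small membrane protein, was at 5803.6, 5758.1 and 6590.0 in PS0, at 5952.6, 6455.1 and 6156.8 at 1 h, at 3868.0, 3214.7 and 3811.5 at 2 h, and at 3769.4, 3405.1 and 3343.2 at 3 h. It was level with PS0 at 1 h and below all of those libraries later, with a log2 change of -0.74 at 2 h (limma adjusted p 0.01) and -0.79 ± 0.18 at 3 h (limma adjusted p 0.00431). PSBS, the sensor of lumen acidity in energy-dependent quenching, was at 4904.5, 3812.2 and 4036.7 in PS0 and at 2737.2, 2140.4 and 2618.7 at 3 h. Its groups did not overlap and the change of -0.77 passed (limma adjusted p 0.0098), but not without PS0 replicate 1 (0.056) or 3 h replicate 2 (0.0573). PSBW, which stabilises the photosystem II supercomplex, was at 15440.0, 16020.3 and 9278.8 in PS0 and at 8602.2, 6106.4 and 7304.0 at 3 h. Its change of -0.86 passed (limma adjusted p 0.022), but was lost when any of 4 libraries was left out, with an adjusted p of up to 0.109. PSBX, another small membrane protein, had a change of 0.14 at 3 h (limma adjusted p 0.92) against PS0 and of -3.17 (limma adjusted p 0.000348) against S0 and PH0.

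**Figure D3:**
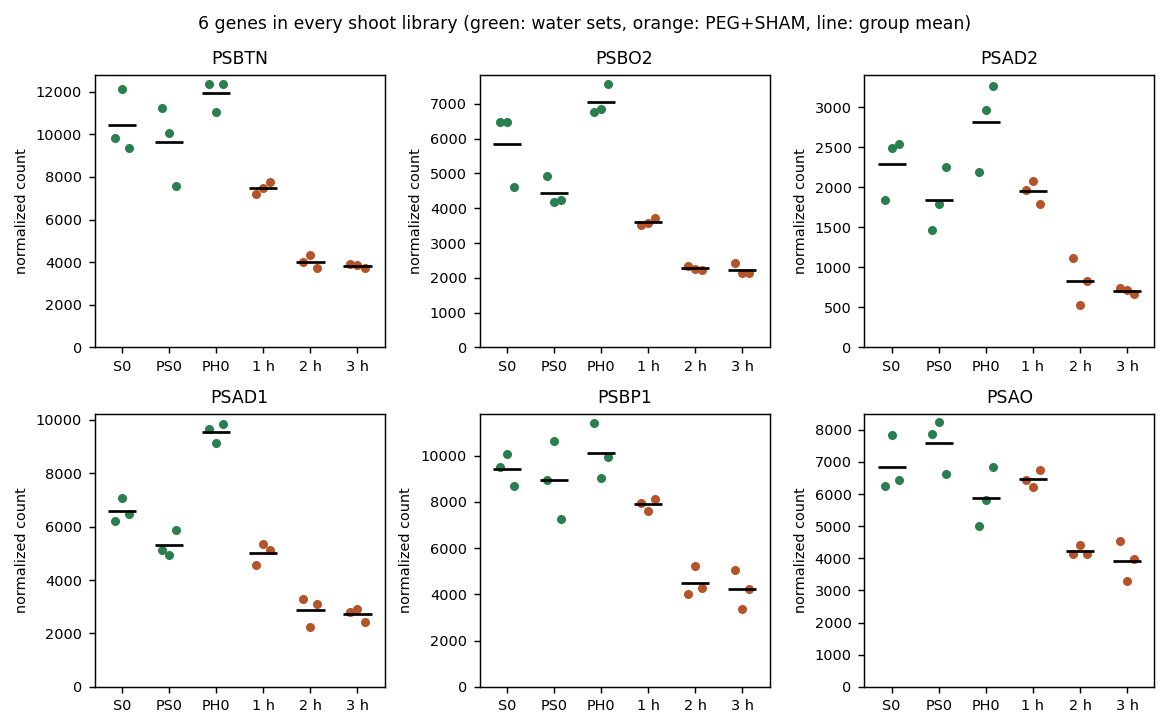
Normalized counts of PSBTN, PSBO2, PSAD2, PSAD1, PSBP1 and PSAO in every shoot library, by water set and time; each point is a library. The 2 h and 3 h libraries lie below the 3 PS0 libraries in every panel, and for PSAD1 and PSBO2 the PH0 libraries lie above those of PS0.

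Among the carriers, the minor plastocyanin copy PETE1 (AT1G76100) was at 465.4, 456.2 and 397.2 in PS0, at 402.2, 475.2 and 435.7 at 1 h, at 276.0, 206.5 and 261.6 at 2 h, and at 317.8, 252.7 and 272.8 at 3 h. The later libraries did not overlap with PS0. The log2 change of -0.83 at 2 h kept its call when any library was left out (limma adjusted p 0.00644), while the change of -0.65 at 3 h (limma adjusted p 0.0244) lost it without any of 4 libraries, with an adjusted p of up to 0.102. The major copy PETE2 was at 26677.0, 30483.7 and 12856.1 in PS0 and at 16247.9, 9468.8 and 13699.0 at 3 h, with overlap and a log2 change of -0.77 (limma adjusted p 0.125). PETC, the Rieske iron-sulfur protein of cytochrome b6f, had a change of -0.47 (limma adjusted p 0.123). FD2, the main leaf ferredoxin, was at 112.8, 90.3 and 481.2 in PS0 and at 455.9, 477.6 and 487.7 at 3 h. Its groups overlapped through PS0 replicate 3, and the log2 change of 1.47 ± 0.72 did not pass (limma adjusted p 0.197), but was called higher without that library. The direction turned with the control: FD2 averaged 473.7 ± 16.2 at 3 h, 228.1 ± 219.5 in PS0, 1876.5 ± 306.2 in S0 and 1429.6 ± 1525.4 in PH0 (SD, n = 3). Against S0 and PH0 the change was -1.49 at 3 h (limma adjusted p 0.0808) and -2.52 at 1 h (limma adjusted p 0.00759). The ferredoxin-NADP reductases LFNR1 and LFNR2 had changes of -0.25 (limma adjusted p 0.435) and -1.15 (limma adjusted p 0.317). Of the ATP synthase, the regulatory gamma subunit ATPC1 was at 95.2, 30.6 and 33.6 in PS0, at 18.4, 13.5 and 18.3 at 2 h, and at 20.8, 20.7 and 25.1 at 3 h. It was called lower at 2 h (-1.43 ± 0.43, limma adjusted p 0.0404), but not at 3 h (-1.03, limma adjusted p 0.123) and not at 2 h when any of 4 libraries was left out (adjusted p up to 0.243). The delta subunit ATPD and the membrane stalk subunit ATPG had changes of -0.48 and -0.39 at 3 h (limma adjusted p 0.161 and 0.14).

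Of the 14 genes called at 3 h, PSBTN, PSBO2, PSAD2, PSAD1, PSBP1, PSAO, PSAE1 and PSBY kept the call when any PS0 or 3 h library was left out. At 2 h the genes that did so were PSBTN, PSBO2, PSAD2, PSAD1, PSBP1, PSAO, PETE1 and PSBY. Libraries of 21 of the 32 genes lay wholly below PS0 at 3 h, where 16.9% of all genes did, and libraries of 17 did at 2 h, against 13.0%. At 1 h libraries of 3 genes did (PSBO1, PSBO2 and PSBQ1), against 6.99%. Of 15 marker transcripts of root cells 14 were in the table. In shoots their summed normalized count was 36.6 to 56.4 in PS0 and 12.1 to 17.9 at 3 h, against 797 to 3250 in root libraries. In roots the sum was lower at 3 h as well, at 797 to 830 against 1650 to 1880 in PS0. At 3 h limma called 0 of 5 tested markers in shoots and 6 of 13 lower in roots. PRP1 was at 0 in all 18 shoot libraries, MYB36 in 16 and COBL9 in 12, while PER64 was at 0 in 1 and CASP1 in 0. The root medians were 1.65 for PRP1, 1.15 for MYB36 and 9.95 for COBL9, against 140.0 for PER64 and 606.0 for CASP1. Zeros of PRP1 and MYB36 in shoots therefore say little. The part of the markers in the result was not tested.

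A comparison within the treated libraries uses no water control. From 1 h to 3 h 8 of the 32 genes were lower and 0 higher, against 3.26% lower and 2.98% higher of all genes, with a median of -0.38 (all genes -0.04). PSAD2 fell by 1.46 ± 0.24 (limma adjusted p 0.000466), PSBTN by 0.96 (0.00287), PSAD1 by 0.88 (0.00413), PSBY by 0.82 (0.00593), PSBP1 by 0.92 (0.00756) and PSBO2 by 0.69 (0.0152). PSAO and PETE1 were the others called. The count was 4 without 3 h replicate 2, with PSAD1, PSAD2, PSBY and PSBTN left, and 5 without any 1 h library or without 3 h replicate 3. From 1 h to 2 h, a comparison added after the data were seen, 7 were lower and 0 higher, against 1.12% lower and 1.15% higher of all genes, and PSAD2 had a change of -1.30 (limma adjusted p 0.00352). From 2 h to 3 h limma called 0 of the 32 and 0 of all 10459 genes, a share of 0.0%, and 0 of the 32 had an unadjusted p under 0.05.

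The 3 water sets carry the same treatment label and still differed for many of the 32 genes. Against the mean of S0 and PH0, PS0 had 14 of them lower and 0 higher, where these calls took 6.66% and 5.34% of all genes. The median log2 difference was -0.53 (all genes -0.06). The count was 5 without PS0 replicate 2 and 7 without S0 replicate 2, and under quantile normalization 8 were lower and 2 higher, PSAO and PSBS. PSBX was at 52.9, 24.5 and 29.1 in PS0, at 830.0, 543.3 and 360.3 in S0 and at 699.4, 110.9 and 127.7 in PH0. All PS0 libraries were below all others, with a difference of -3.31 ± 0.58 (limma adjusted p 0.00106). ATPD was at 398.4, 355.2 and 540.0 in PS0, at 890.2, 1173.4 and 1138.3 in S0 and at 799.3, 577.2 and 806.8 in PH0, again with no overlap (-1.04 ± 0.19, limma adjusted p 0.00149). FD2 was at 1542.4, 1943.5 and 2143.7 in S0 and at 3175.1, 352.9 and 760.7 in PH0, so that PS0 replicate 3, at 481.2, overlapped with PH0 (-2.96 ± 0.62, limma adjusted p 0.00405). PSBQ1 was at 4457.3, 4972.2 and 4156.4 in S0 and at 6661.1, 4002.2 and 4973.6 in PH0, above every PS0 library (-0.73, limma adjusted p 0.00677). LFNR1 was at 1364.5, 1371.8 and 1520.3 in PS0, at 2443.5, 2651.1 and 2540.7 in S0 and at 2275.9, 1857.8 and 2367.1 in PH0, also without overlap (-0.72, limma adjusted p 0.00814). PSAF was at 169.2, 32.2 and 81.8 in PS0, at 570.3, 434.6 and 223.2 in S0 and at 166.5, 203.9 and 216.3 in PH0. PS0 replicate 1 overlapped with PH0, and the difference of -1.82 ± 0.44 (limma adjusted p 0.0108) did not pass without PS0 replicate 2 (0.116).

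Several genes with small adjusted p after treatment differed little between PS0 and the other sets. The difference was -0.23 for PSBTN, -0.14 for PSBP1, -0.09 for PSAE1 and 0.26 for PSAO, and none of these passed. PSAD2 did not pass either, but its difference of -0.47 was near the median of -0.53 over the 32 genes. It averaged 1840.3 in PS0, 2292.9 in S0 and 2813.0 in PH0. PSAD1 and PSBO2 were lower in PS0 (-0.58 and -0.53, limma adjusted p 0.0206 and 0.0239), so their falls after treatment were larger against the other sets. Between S0 and PH0 4 genes were lower in S0 and 2 higher, against 5.15% and 11.3% of all genes, and with TMM scaling 3 were lower and 4 higher. ATPG was at 5126.5, 5387.8 and 4916.5 in S0 and at 9492.1, 8458.1 and 9860.3 in PH0 (-0.85 ± 0.17, limma adjusted p 0.0042). PSAN was at 2346.1, 1616.2 and 416.2 in S0 and at 166.5, 155.5 and 145.4 in PH0 (2.90 ± 0.68, limma adjusted p 0.00952). Neither gene had overlapping sets, and PS0 lay near S0 for ATPG, at 4781.1, 4358.7 and 5301.5. PSBY had a difference of -0.72 (limma adjusted p 0.0117), PETE1 -0.74 (limma adjusted p 0.013), PSAD1 -0.54 (limma adjusted p 0.0474) and PSBQ2 0.81 (limma adjusted p 0.0121), each without overlap. Without S0 replicate 1 only ATPG stayed lower and PSBQ2 higher. Without S0 replicate 2 the count higher was 1, and without S0 replicate 3 or PH0 replicate 1 it was 4.

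**Figure D4:**
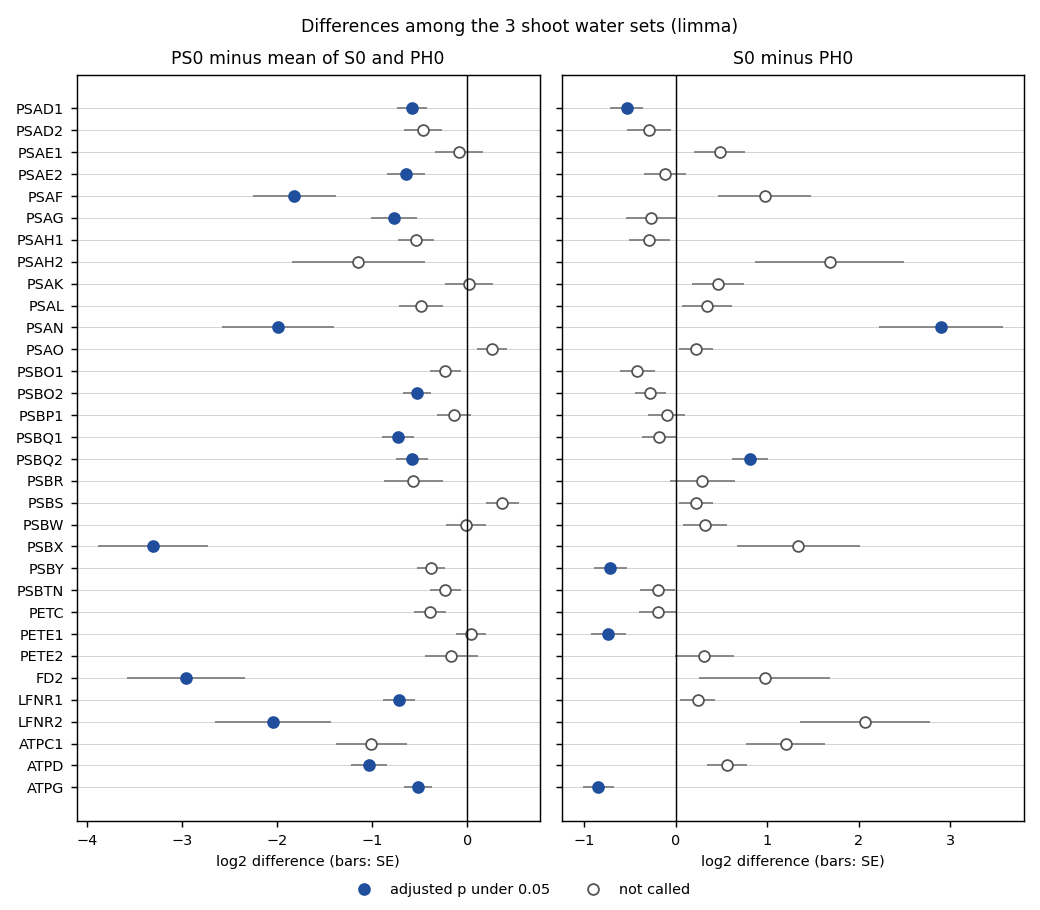
Differences between water sets in shoots for each of the 32 genes: log2 difference of PS0 from the mean of S0 and PH0, and of S0 from PH0, with standard errors; filled points have an adjusted p under 0.05. PSBX and FD2 are furthest below 0 in the comparison of PS0, at -3.31 and -2.96, and PSAN is furthest above 0 in that of S0, at 2.90.

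A group of genes chosen after their values were seen, and therefore without a test, was much noisier than the rest. PSAF, PSAH2, PSAN, PSBX, FD2, LFNR2 and ATPC1 had standard errors from 0.43 (ATPC1) to 0.81 (PSAH2) in the shoot fit, while the other 25 genes had 0.17 to 0.36. LFNR2 was at 14.1, 15.3 and 5.0 in PS0, at 163.8, 118.2 and 45.6 in S0, and at 3.0, 5.2 and 4.4 at 3 h. Their highest shoot value lay in an S0 library for every gene of the group except FD2, whose highest was in the shallow PH0 replicate 1.

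Where a subunit has more than 1 gene, the log2 ratio of the copies within a library was compared. It was taken after adding 1 to each normalized count, so where a copy was rare, as PSAH2 and LFNR2 were, the scaling and the added count enter it. Over 7 pairs of copies, 0 ratios differed between the 9 treated and the 3 PS0 shoot libraries after adjustment (exact two-sided permutation test over 220 splits, smallest possible p 0.00909). Even at that smallest p a single pair could not pass alone after adjustment over 7 pairs. The count of 0 therefore does not show that the copies move alike. The ratio of PSAE1 to PSAE2 was 1.63 ± 0.15 in PS0 and 1.15 ± 0.26 after treatment (SD, n = 3 and 9). The exact permutation p was 0.0182 and the adjusted p 0.127. By time it was 1.46 ± 0.12 at 1 h, 1.06 ± 0.13 at 2 h and 0.92 ± 0.12 at 3 h. The other water sets were at 1.38 ± 0.12 (S0) and 0.78 ± 0.04 (PH0). Against all 9 water libraries the difference was -0.11 (exact permutation p 0.473). PSAD1 to PSAD2 was 1.55 ± 0.22 in PS0 and 1.71 ± 0.31 after treatment, including 1 h (exact permutation p 0.409). By time it was 1.36 ± 0.15 at 1 h, 1.84 ± 0.27 at 2 h and 1.94 ± 0.08 at 3 h (SD, n = 3), and the 3 h libraries, at 1.87 to 2.03, lay above all PS0 libraries, at 1.39 to 1.80. In water, S0 was at 1.54 ± 0.2 and PH0 at 1.78 ± 0.31, and the shallow PH0 replicate 1, at 2.14, lay above every 3 h library. For PSAD the difference from all 9 water libraries was 0.09 (exact permutation p 0.493). PSBO1 to PSBO2 was 1.77 ± 0.09 and 1.97 ± 0.17 (exact permutation p 0.109), and PSBQ1 to PSBQ2 was 0.08 ± 0.11 and -0.09 ± 0.16 (exact permutation p 0.0909). PETE1 to PETE2 was -5.64 ± 0.55 and -5.44 ± 0.37 (exact permutation p 0.518), PSAH1 to PSAH2 was 6.22 ± 1.55 and 7.37 ± 1.1 (exact permutation p 0.2), and LFNR1 to LFNR2 was 6.96 ± 0.89 and 7.81 ± 0.56 (exact permutation p 0.0636). With 5 added in place of 1, the treated minus PS0 difference moved from 1.15 to 0.79 for PSAH and from 0.85 to 0.50 for LFNR. Against all 9 water libraries 3 ratios differed: PSBO by 0.40 (exact permutation, adjusted p 0.00403), LFNR by 1.74 (adjusted p 0.00792) and PSAH by 1.56 (adjusted p 0.032). With the 3 h libraries alone the differences were 0.39 for PSAD, -0.71 for PSAE and 0.34 for PSBO, each with an exact permutation p of 0.1, the smallest that 3 against 3 can give.

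Roots carried these transcripts at low levels. In water all 32 genes were lower in roots than in shoots, against 22.8% of 13218 genes tested, with a median log2 difference of -7.31 (all genes 0.58) and a range from -8.61 (PSAG) to -4.16 (PSBX). PSAH2 and LFNR2 were each at 0 in 6 of the 9 root water libraries, so their fitted differences depend on the added count of 1. In roots 29 of the 32 genes passed the filter on low values, and PSAH2, PETE1 and LFNR2 did not. Against PS0 limma called 0 of the 29 at 1, 2 and 3 h, where 1.67%, 3.04% and 6.56% of 11950 genes were called in either direction. An unadjusted p under 0.05 was found for 3, 3 and 1 of them, and edgeR and DESeq2 on recovered reads called 0 at each time. The root medians were 0.15 at 1 h, -0.42 at 2 h and -0.41 at 3 h, beside -0.12, -0.10 and -0.16 for all genes. These medians moved with a single library and with depth. At 1 h the median was -0.51 without replicate 2, the shallowest root library, in which the 32 genes summed to 7208.4 normalized counts against 985.2 to 3381.1 in the other 17 root libraries. With recovered depth as a term in the model the medians were 0.50, 0.15 and 0.21, so the direction turned at 2 h and 3 h.

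PSAD2 was the gene called for a different response in the tissues at 3 h, with PS0 as control. In roots it was at 7.1, 9.7 and 9.3 normalized counts in PS0, at 18.8, 17.1 and 18.2 at 1 h, at 11.8, 13.5 and 11.6 at 2 h, and at 11.2, 9.1 and 10.5 at 3 h. The 1 h and 2 h libraries were above every PS0 library and the 3 h libraries overlapped with PS0. None of these changes passed (0.98 ± 0.35 at 1 h, limma adjusted p 0.146, and 0.22 ± 0.35 at 3 h, limma adjusted p 0.775). The root values rest on few reads, with 7, 11 and 3 in PS0, 28, 4 and 125 at 1 h, and 24, 14 and 11 at 3 h. The difference of the 3 h responses, root minus shoot, was 1.58 ± 0.33 on the log2 scale (limma adjusted p 0.00364), the only 1 of 29 genes tested that passed in either direction, against 2.19% higher and 1.64% lower of 9191 genes. That count of 1 in 29 is near the shares of all genes and is not read as a result about the set. Without root 3 h replicate 1, 2 of the 29 passed, and with all 3 water sets as control 9 did. The share of all genes called is not given for these other fits. Against PS0 PSBP1 came next to PSAD2, at 1.49 ± 0.47 (limma adjusted p 0.0734). PSAD1, the other copy, was at 41.5, 54.9 and 34.2 in root PS0, at 66.6, 102.4 and 48.2 at 1 h, and at 29.9, 37.0 and 30.7 at 3 h, and its responses did not differ between the tissues beyond the threshold (0.58 ± 0.30, limma adjusted p 0.328).

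**Figure D5:**
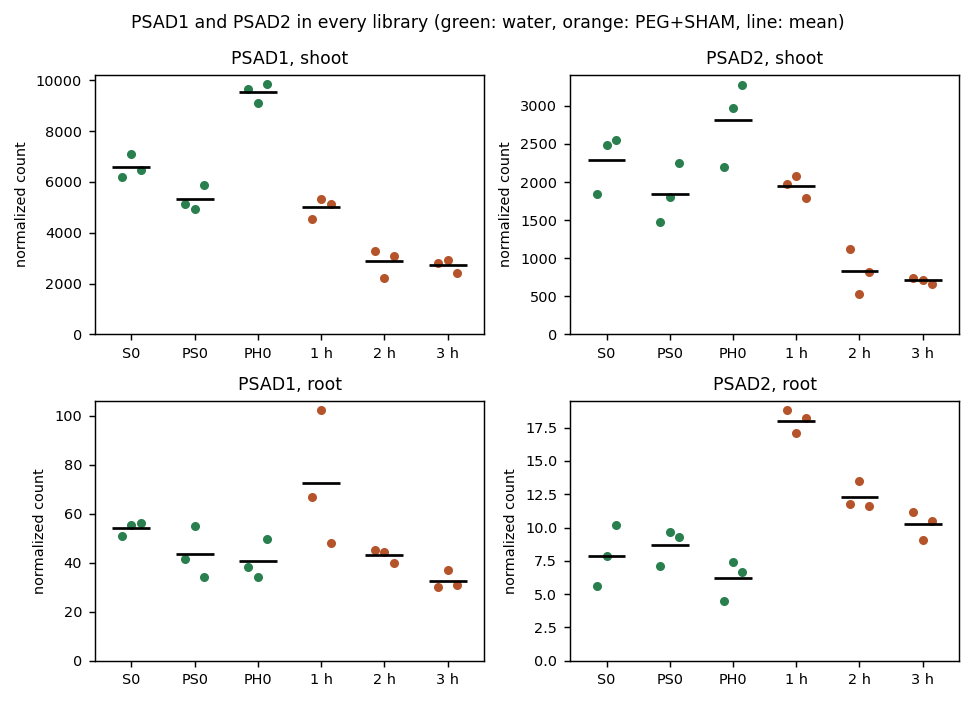
Normalized counts of PSAD1 and PSAD2, the copies of the ferredoxin-docking subunit PSAD, in every shoot and root library; each point is a library. In shoots both copies are lowest at 2 h and 3 h, while in roots PSAD2 is highest at 1 h, between 17.1 and 18.8.

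Genes of the same pathway outside these 32 were described from fixed lists, to which the shares of all genes given for 3 h in shoots also apply. Of 15 antenna genes 11 were lower at 3 h and 0 higher, with a median of -0.83. LHCB2.3, a major trimeric antenna protein of photosystem II, fell from 734.1 ± 237.1 to 141.6 ± 30.0 (SD, n = 3; log2 change -2.33, limma adjusted p 1.28e-06), and LHCB2.2, LHCB2.1 and LHCB4.2 changed by -1.78, -1.80 and -1.20, where values of single LHCB2 copies are uncertain like those of the pairs above. The antenna share of a library was 8.45% ± 1.48 in PS0, 8.5% ± 0.633 in S0, 6.08% ± 0.323 in PH0 and 5.66% ± 0.736 at 3 h. Of 19 Calvin cycle genes 7 were lower and 0 higher (median -0.60), among them RCA, the rubisco activase, with -1.02 (limma adjusted p 8.42e-05). Of 17 tested genes of cyclic electron flow and the NDH complex 2 were lower, NDF4 (-0.84) and NDHT (-1.30). Of 25 tested genes of assembly and repair 1 was lower, LPA2 (-0.73), and 2 were higher, ALB3, an insertase of thylakoid proteins (0.75), and FTSH8, a protease subunit of the photosystem II repair cycle (1.87). Of 21 tested genes of the chloroplast genome 1 was lower, psbC, an inner antenna protein of photosystem II (-1.36, limma adjusted p 0.00132). Of 16 tested regulators 2 were lower, the GATA factor GNC (-1.34) and PIF1 (-1.48), and 1 was higher, PIF3 (1.35). PIF1 and PIF3 are phytochrome-interacting factors. The counts for cyclic flow, assembly and repair, the chloroplast genome and the regulators are small and not far from the shares of all genes. They are therefore not read as results about these lists. Of 4 tested relatives of these genes outside the set limma called 0, and 0 had an unadjusted p under 0.05. At 1 h limma called 0 genes of these pathway lists, with an unadjusted p under 0.05 for 4 Calvin cycle, 3 cyclic flow, 1 assembly, 5 regulator and 0 antenna genes, and at 2 h 7 antenna, 3 Calvin cycle, 3 chloroplast genome, 3 cyclic flow, 1 assembly and 1 regulator genes were lower and 1 assembly and 1 regulator genes higher, against the 5.06% and 4.36% of all genes given for 2 h. The assembly and regulator counts at 2 h were also near the shares of all genes. The chloroplast genome list had a median of -0.86 at 2 h and -0.50 at 3 h. The same lists also differed between water sets: 13 of 19 Calvin cycle genes were lower in PS0 than in the other sets, as were 10 of 17 cyclic flow genes, 9 of 25 assembly genes, 2 of 16 regulators (1 was higher) and 1 of 21 chloroplast genome genes, while 1 of 15 antenna genes was lower and 4 were higher. Of all genes 6.66% were lower and 5.34% higher there, so the chloroplast genome count was near that share.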

How the data were processed

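MARS-seq libraries of roots and shoots came as 1 table, in which the authors had deposited normalized signal: gene counts divided by a size factor per library and rounded, as the values themselves show. Per the submitters' processing notes bcl2fastq, cutadapt, STAR 2.4.2a, HTSeq and DESeq2 were used, with no role stated. The sources used here do not give the genome build, annotation, strandedness or use of molecular identifiers. None of the columns was left out, and 16183 identifiers (99.39%) matched the reference annotation.

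Whole reads were recovered from the step between values and served for depth, edgeR 4.0.16 and DESeq2 1.42.0. To the tolerance of 0.05, 100% of values came out whole, a weaker check where 1 read is worth little (0.146 to 11.1 over libraries). At 3 h in shoots edgeR called 861 genes lower and 973 higher of all genes tested, limma 771 and 697. The main test was limma 3.58.1 (R 4.3.3) with a mean-variance trend on log2(normalized signal + 1), so fold changes of low genes are understated. It had 18 libraries and 6 group means per tissue, or 36 and 12 between tissues. Genes with 5 or more in at least 3 libraries were tested, and genes with an adjusted p (Benjamini-Hochberg) under 0.05 were called. The scripts were tested on simulated data. Ratios of gene copies had exact permutation tests.

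Every member may be named. Those with full values are, in each comparison, the 6 called members with the largest absolute moderated statistic, and the copies in pairs. In each other list up to 4 called genes are named by the same rank. The members and lists (antenna, Calvin cycle, cyclic flow, assembly, chloroplast genome, regulators, copies outside the set, dehydration, root markers) were chosen with earlier results of these data known. The p-values measure the spread between pools of seedlings.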

Additional observations from a re-analysis of the deposited data

Results flagged for a closer look

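With PS0 as control, PSAD2, a ferredoxin-docking subunit of photosystem I, was called for a different response in roots and shoots after 3 h of PEG with SHAM. The interaction term in limma, root response minus shoot response, was 1.58 ± 0.33 on the log2 scale (adjusted p 0.00364, 3 libraries in each of the 4 groups compared). PSAD2 was the only 1 of 29 tested genes that passed, where 2.19% of 9191 genes were higher and 1.64% lower. A count of 1 in 29 is near these shares of all genes. It is therefore not read as a result about the set. With all 3 water sets as control 9 of the 29 passed, but the share of all genes called is not given for that fit. In root PS0 and root 3 h libraries PSAD2 lay between 7.1 and 11.2 normalized counts, from 3 to 24 reads each.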

How the results depend on the processing

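The count of genes called lower in shoots depended most on the control. Against S0 and PH0 it was 20, 30 and 30 at 1, 2 and 3 h, and against all 3 water sets 12, 30 and 30. Fitted with the compared groups alone it was 1 at 2 h and 7 at 3 h. At 2 h it was 8 under quantile normalization and 8 without libraries under 600 kiloreads, an alternative chosen after seeing the data. Leaving out 1 library gave 0 to 1 lower at 1 h, 8 to 19 at 2 h and 8 to 18 at 3 h, and 0 to 1 higher at 3 h. For 3 h against 1 h it gave 4 to 7, and 3 h against 2 h gave 0. For the fits with fewer groups or libraries and under quantile normalization the share of all genes called is not given.

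In roots S0 and PH0 as control gave 2 lower and 3 higher at 1 h, 1 lower at 2 h, and 1 lower and 1 higher at 3 h. All 3 sets gave 2 and 2, 1, and 1 and 1. A depth term gave 7 higher at 1 h and 2 at 3 h. The share of all genes called is not given for these alternatives, so the root counts cannot be set against a background.

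For PS0 against the other sets the count lower was 8 with TMM, 8 with quantile normalization and 5 with the compared groups alone (5 to 14 with 1 library left out), and quantile normalization gave 2 higher. For S0 against PH0 the compared groups alone gave 1 lower (1 to 3 with 1 library left out). The count higher was 4 with TMM, 5 with a pseudocount of 5, 5 with edgeR, 5 with DESeq2, 7 with a depth term and 6 without the libraries under 600 kiloreads (1 to 4 with 1 library left out). For the difference of root and shoot responses the count higher was 2 with TMM, 2 with DESeq2, 2 with the compared groups alone, 2 with a depth term and 9 with all 3 water sets (1 to 2 with 1 library left out). Ratios of copies against all 9 water libraries gave 3. The cause of these shifts was not tested, apart from fewer libraries in the fits that leave some out. For these alternative fits too the share of all genes called is not given.

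TMM raised the median log2 change of all genes at 1 h in shoots from -0.02 to 0.12, and that of the 32 genes from -0.20 to -0.04. At 3 h the median of the 32 was -0.64 with TMM (all genes 0.03) and -0.55 with quantile normalization (all genes -0.05). In roots TMM moved the median of all genes from -0.12 to 0.02 at 1 h, from -0.10 to 0.07 at 2 h and from -0.16 to 0.07 at 3 h.

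Within a tissue the replicate numbers showed no pairing on average. Same-numbered libraries had a mean correlation of their deviations of 0.001 in shoots and 0.041 in roots over 45 pairs each. Single pairs ranged from -0.222 to 0.494 in shoots and from -0.472 to 0.51 in roots. Whether same-numbered root and shoot libraries came from the same seedlings was not tested. A replicate block gave 0, 15 and 14 lower in shoots at 1, 2 and 3 h, 7 for 3 h against 1 h and 14 for PS0 against the other sets. Of the recomputed values of the 89 called single-gene results 1693 kept direction and call, 187 kept direction and lost the call, and 0 reversed. The 89 include the differences of all 32 genes between roots and shoots in water, which kept the call under every alternative. They raise the tally and say nothing on the treatment calls. With only the groups compared 57 of the 89 kept the call and 32 lost it, all of the latter outside that comparison of tissues. Among values not called against PS0, 9 turned and were called under an alternative, 8 of them with another water control (PSBX, PSAF and FD2 lower in shoots) and 1 with a depth term (PETE2 higher in roots at 3 h).

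Depth limits the rare transcripts: in shoot PH0 replicate 1, with 161.7 kiloreads, and in roots, where PSAD2 had as few as 3 reads.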
